A study of Mus musculus with 2 samples.

Results

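The genes described are those of the mitochondrial respiratory chain and its ATP synthase, coded either in the mitochondrial genome or in the nucleus. Members were taken by symbol, as genes that begin with mt-, Nduf (a, b, c, s or v with a number), Cox4 to Cox8, Atp5 or Uqcr, or that are Sdha to Sdhd, with pseudogene names left out. The rule found 96 of the 30905 genes counted, of which 13 are mitochondrially coded and 83 nuclear-coded. Frozen cerebral cortex of untreated wild-type C57BL/6 mice was used at 18 months and at 2 months of age, with 3 mice pooled at each age, so animals could not be told apart. Nuclei were separated from debris on a sucrose layer, per the labels, and sequenced on the 10x Genomics Chromium droplet platform, which counts RNA molecules by unique molecular identifiers (UMIs). The deposited matrix holds both pools as barcodes with 2 suffixes, here library 1 and library 2. Which suffix belongs to which age is not stated in the labels. The matrix was therefore treated as 1 sample, no ages were compared, and no value below carries a test. Intervals are 95% intervals for counting error only.

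The chain is built of complexes that pass electrons from NADH and succinate to oxygen and pump protons, which ATP synthase then uses to make ATP. Complex I is NADH dehydrogenase, complex II succinate dehydrogenase, complex III the cytochrome bc1 complex, complex IV cytochrome c oxidase and complex V ATP synthase. Complex II is coded wholly in the nucleus, whereas the others combine subunits from both genomes. Nuclear-coded subunits are transcribed in the nucleus and their proteins imported. The mitochondrially coded transcripts are made inside mitochondria, which lie outside the nucleus.

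Library 1 held 8914 barcodes and 58108297 UMIs, and library 2 held 8587 barcodes and 60547146 UMIs. There were 8286 and 7954 nuclei left after leaving out barcodes above 5% mitochondrially coded UMIs and likely doublets. Clusters were made without the members and named by marker genes, so that class names mean nuclei like that class. Classes were compared where both libraries held 50 nuclei or more, which gave 10 classes, 7 non-neuronal and 3 neuronal. Own-class markers set the endothelial class apart, at 0.910% and 1.02% of its UMIs in libraries 1 and 2 against at most 0.0789% and 0.0602% in any other class. Excitatory neuron markers were found in non-neuronal classes too, at 0.110% of endothelial UMIs and 0.229% of excitatory neuron UMIs in library 1, and the part of this in the values below was not tested. The libraries shared 19 barcode sequences.

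Of the 96 members, 91 had at least 20 UMIs and were measured: all 13 mitochondrially coded genes and 78 nuclear-coded ones. The measured nuclear-coded members comprise 36 of complex I, 4 of complex II, 8 of complex III, 14 of complex IV and 16 of complex V. The 5 below the minimum were Cox7a1 with 19 UMIs, Cox8b with 5, and Ndufa13, Cox4i1 and Cox8c with 0. Just above it lay Cox4i2 with 55 UMIs and Cox6b2 with 68. Ndufa13 and Cox4i1 each overlap another counted gene on the same strand in the GENCODE vM21 annotation. Their listing at 0 is thus no measure of their expression, and the same limit touches Ndufb2, Ndufb8 and Ndufb9. Cox7a1 and Cox8b, subunit forms of heart and skeletal muscle, and Cox8c, a testis form, were near or at 0 in nuclei whose common forms Cox7a2 and Cox8a were well counted.

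Mitochondrially coded transcripts made up 1.046% of the UMIs of kept nuclei in library 1 and 0.912% in library 2, and nuclear-coded members 0.187% and 0.178%. The mitochondrially coded share was higher in each glial and vessel wall class than in each neuronal class. The nuclear-coded share was so in library 2, whereas in library 1 oligodendrocyte precursors and inhibitory neurons both had 0.201%. Endothelial nuclei had the highest mitochondrially coded share of the 10 classes, 2.51% (2.47 to 2.55) in library 1 and 2.49% (2.46 to 2.52) in library 2. Oligodendrocytes followed in library 1 with 1.75%, against 1.57% in library 2. Microglia had 1.55% and 1.64%, pericytes with smooth muscle 1.53% and 1.57%, astrocytes 1.503% and 1.58%, and fibroblasts 1.48% and 1.505%. The order among these last 4 classes was not the same in the libraries. Oligodendrocyte precursors were lowest among non-neuronal classes, at 1.22% and 1.21%. Striatal projection neurons had 0.972% and 0.876%, inhibitory neurons 0.958% and 0.850%, and excitatory neurons, the lowest class in both libraries, 0.915% and 0.711%.

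The nuclear-coded share ordered the classes differently at the top. It was 0.311% and 0.289% in endothelial nuclei, within the range of 0.284% to 0.331% that microglia, astrocytes, oligodendrocytes, fibroblasts and pericytes with smooth muscle spanned over both libraries. Oligodendrocyte precursors had 0.201% and 0.233%. Excitatory neurons were again lowest, at 0.162% and 0.146%, with inhibitory neurons at 0.201% and 0.191% and striatal projection neurons at 0.178% and 0.165%. Mitochondrially coded UMIs per nuclear-coded UMI were therefore 8.05 (7.67 to 8.47) and 8.62 (8.31 to 8.95) in endothelial nuclei, and between 4.44 and 6.05 in the other 9 classes. Single nuclei of a class varied widely: endothelial nuclei had a median of 2.07% and 1.95% mitochondrially coded UMIs, with 10th and 90th percentiles of 0.934% and 3.86% in library 1 and 1.03% and 3.77% in library 2. The matching percentiles of excitatory neurons were 0.294% and 2.00% in library 1 and 0.302% and 1.37% in library 2, so that nuclei of both classes overlapped.

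**Figure D1:**
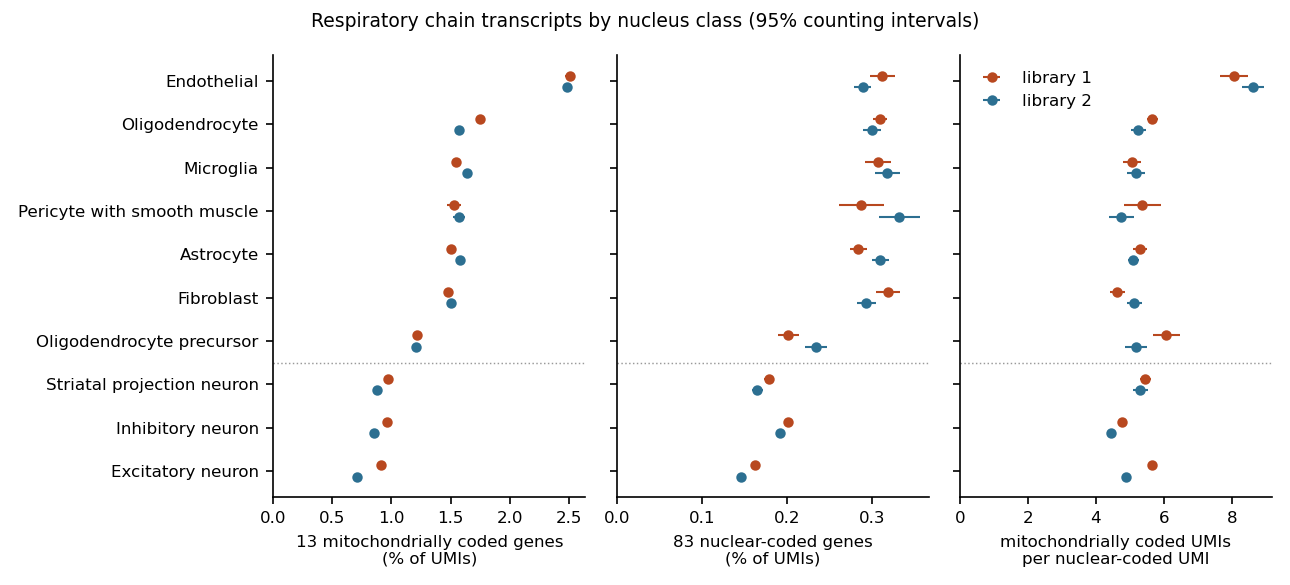
Share of UMIs from mitochondrially coded genes (left), share from nuclear-coded genes (middle) and their ratio (right) in each nucleus class, 1 point per library with its 95% counting interval; the dotted line divides non-neuronal from neuronal classes. Endothelial nuclei lie apart on the left, at 2.51% and 2.49%, and on the right, at 8.05 and 8.62, but not in the middle panel.

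Within the mitochondrially coded part a few transcripts held most of the UMIs. Mt-Atp6, a proton channel subunit of ATP synthase, made up 21.0% and 20.8% of the mitochondrially coded UMIs of kept nuclei in libraries 1 and 2, and mt-Co3, a core subunit of cytochrome c oxidase, 20.3% and 20.2%. Levels were also put on the scale of CPM (UMIs of a gene per 1e6 UMIs of the pool) per kilobase of exon. A UMI counts a molecule whatever its length, so this scale raises short genes over long ones. On it mt-Atp6 was again the highest, at 3230 and 2779, followed by mt-Co3 at 2702 and 2354 and mt-Co2 at 2210 and 1853. The catalytic subunit mt-Co1 stood at 837 and 694, mt-Cytb of complex III at 876 and 603, and the complex I subunits mt-Nd1, mt-Nd2 and mt-Nd4 between 481 and 685. Lowest per kilobase was mt-Nd6, at 8.43 and 53.6, with mt-Nd5 at 48.2 and 61.2 and mt-Atp8 at 41.4 and 167. Mt-Atp8 overlaps mt-Atp6 on the same strand, so how reads were split between them is uncertain. Mt-Nd6 is the only one of the 13 coded on the opposite strand of the mitochondrial genome, where its end overlaps mt-Nd5.

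That composition varied little among the 10 classes for the abundant transcripts. The share of mt-Atp6 among mitochondrially coded UMIs ranged from 20.3% in astrocytes to 22.5% in pericytes with smooth muscle in library 1, and from 20.4% in inhibitory neurons to 22.2% in endothelial nuclei in library 2. Endothelial nuclei had the highest share of mt-Co2 in both libraries, at 15.5% and 15.3%, and the lowest share of mt-Co3, at 18.1% and 18.1%. By level rather than share, 11 of the 13 had their highest CPM in endothelial nuclei in library 1 and 13 in library 2. The 2 exceptions in library 1 were mt-Nd6 and mt-Atp8, which had 3 and 12 UMIs there. How many of all genes were highest in endothelial nuclei was not counted.

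Non-neuronal classes were set against neuronal classes by pooling the UMIs of each. The mitochondrially coded share was 1.80-fold as high in non-neuronal nuclei in library 1 (1.66% against 0.924% in neuronal nuclei) and 2.34-fold in library 2 (1.71% against 0.731%). The nuclear-coded share was 1.74-fold as high in library 1 (0.293% against 0.168%) and 1.95-fold in library 2 (0.295% against 0.151%). Past a 1.5-fold difference, 60 and 65 of the 78 measured nuclear-coded members were higher in non-neuronal nuclei in libraries 1 and 2, 59 of them in both. Of all 18945 genes with 20 UMIs or more, 40.6% and 49.6% passed the same limit, and the share that did so in both libraries was not counted. No measured nuclear-coded member was lower past 1.5-fold in either library, where 19% and 16.6% of all genes were. Shares of all genes, here and below, were not matched to the members for UMI count. The median ratio of the nuclear-coded members was 1.90 and 2.23, that of the mitochondrially coded ones 1.82 and 2.40, and that of all genes 1.33 and 1.52.

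The depth of the nuclei differed between these pools and moved with the shares. Non-neuronal nuclei had a median of 2107 and 2690 UMIs in libraries 1 and 2, neuronal nuclei 7758 and 8162. Among nuclei of 2000 to 4000 UMIs the mitochondrially coded ratio was 1.14 (1.12 to 1.16) in library 1 and 1.27 (1.25 to 1.303) in library 2, and the nuclear-coded ratio was 1.29 (1.23 to 1.36) and 1.22 (1.16 to 1.29). Within that range 24 of 78 nuclear-coded members were higher past 1.5-fold in each library, against 38.3% and 44.3% of all genes, and 2 were lower in each, against 18.5% and 15.7%. In both directions the members thus lay below the share of all genes. Those higher in both libraries number 10: Atp5g1, Cox4i2, Cox6b2, Ndufa3, Ndufa4l2, Ndufa11, Ndufb4, Ndufb8, Ndufc2 and Uqcrfs1. Atp5k was lower in both. The share of all genes past the limit in both libraries was not counted. The median ratio at this depth was 1.29 and 1.27 for nuclear-coded members, 1.22 and 1.29 for mitochondrially coded ones, and 1.13 and 1.195 for all genes. The neuronal side of this range rests on 287 and 217 nuclei, so counts of single genes there are small. Cluster 2, which had excitatory neuron markers but stayed unnamed at its low depth, is in neither pool. Its nuclei had a median of 2108 and 2400 UMIs. They had 2.40% and 2.26% mitochondrially coded and 0.429% and 0.475% nuclear-coded UMIs, above the shares of both pools in this range. The ratios with this cluster counted as neuronal were not computed.

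At other depths the pools lay further apart. At 1000 to 2000 UMIs in library 1 the mitochondrially coded ratio was 1.42 (1.31 to 1.55) and the nuclear-coded ratio 1.36 (1.12 to 1.68), on 24 neuronal nuclei. At 4000 to 8000 UMIs the mitochondrially coded ratio was 1.38 and 1.88, and at 8000 to 16000 UMIs it was 1.92 and 3.03, though with 28 and 40 non-neuronal nuclei. The nuclear-coded ratio changed less, to 1.38 and 1.41 and then 1.37 and 1.59. In neuronal nuclei the mitochondrially coded share was lower in each deeper bin up to 16000 UMIs: over the bins of 2000 to 4000, 4000 to 8000 and 8000 to 16000 UMIs it was 1.36%, 1.03% and 0.861% in library 1 and 1.26%, 0.831% and 0.660% in library 2. Their nuclear-coded share over the same bins was 0.219%, 0.185% and 0.159% in library 1 and 0.252%, 0.178% and 0.139% in library 2. Above 16000 UMIs, in 244 and 237 neuronal nuclei, the mitochondrially coded share was 0.810% in library 1 but 0.741% in library 2, higher than in the bin before it, and the nuclear-coded share was 0.148% and 0.122%. Mitochondrially coded UMIs per nuclear-coded UMI in neuronal nuclei lay between 4.68 and 6.20 over these 4 bins, with 5.46 and 6.08 in the deepest. In non-neuronal nuclei the nuclear-coded share was lower in each deeper bin of both libraries, while the mitochondrially coded share was lowest at 4000 to 8000 UMIs, at 1.42% and 1.56%, and higher again at 8000 to 16000 UMIs, at 1.66% and 2.00%.

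**Figure D2:**
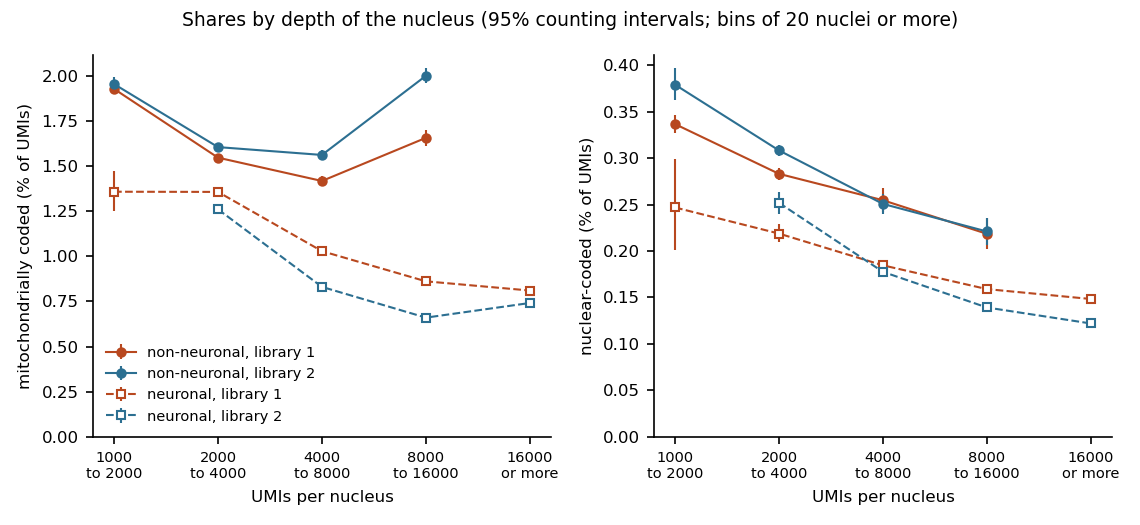
Mitochondrially coded (left) and nuclear-coded (right) share of UMIs in nuclei grouped by their UMI total, for the non-neuronal and the neuronal classes of each library, with 95% counting intervals. At 2000 to 4000 UMIs the mitochondrially coded shares are 1.55% and 1.61% in non-neuronal nuclei and 1.36% and 1.26% in neuronal nuclei, closer than in deeper nuclei.

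By complex, over nuclei of all depths, the pooled nuclear-coded UMIs were higher in non-neuronal nuclei for each of the 5 complexes. The ratio was 1.59 and 1.85 for complex I, 1.54 and 1.72 for complex II, 1.87 and 1.959 for complex III, 1.98 and 2.34 for complex IV, and 1.83 and 1.92 for complex V in libraries 1 and 2. Past 1.5-fold were 28 and 30 of 36 members of complex I, 3 and 3 of 4 of complex II, 6 and 6 of 8 of complex III, 11 and 13 of 14 of complex IV, and 12 and 13 of 16 of complex V, where 40.6% and 49.6% of all genes were. The mitochondrially coded subunits of complexes I, III, IV and V gave ratios of 1.72 to 1.82 in library 1 and 2.29 to 2.44 in library 2. The non-neuronal over neuronal ratios of single members below also pool all depths, and complexes were not compared at matched depth. Among nuclei of 2000 to 4000 UMIs, Sdha, Cox8a and Atp5b were higher past 1.5-fold in library 1 only, and Sdhd in library 2 only. Sdhc, Uqcrh, Cox7b, Cox6a1 and Atp5a1 were past it in neither library.

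**Figure D3:**
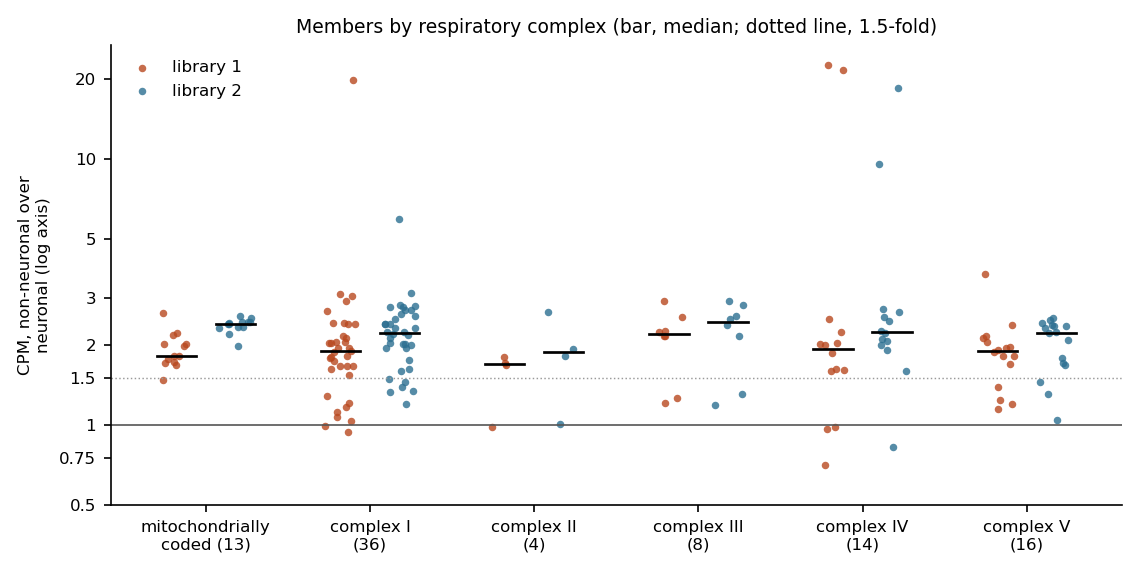
Ratio of CPM in non-neuronal over neuronal nuclei of all depths (log axis) for each measured member, grouped as mitochondrially coded or by nuclear-coded complex. Shown are 1 point per gene and library and a bar at the median. Most points lie above the dotted 1.5-fold line, 60 and 65 of 78 nuclear-coded members, and the 3 members above 5-fold in both libraries are Cox4i2, Cox6b2 and Ndufa4l2.

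Among the 3 members of complex I with the most UMIs the ratio was small. Ndufs4, an accessory subunit needed for a stable complex, had 101 CPM in non-neuronal and 94.2 CPM in neuronal nuclei of library 1, and 116 and 96.8 CPM in library 2. Ndufs1, which carries iron-sulfur clusters, had 82.4 against 67.8 CPM in library 1 and 66.0 against 47.4 CPM in library 2. Ndufa10, an accessory subunit, had 42.1 against 42.3 CPM and 45.3 against 33.7 CPM. These 3 stayed under the 1.5-fold limit in both libraries.

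Complex II showed a split among its 4 subunits. Sdha, the flavoprotein that oxidises succinate, had 124 CPM in non-neuronal and 73.4 CPM in neuronal nuclei of library 1, and 102 and 55.8 CPM in library 2, ratios of 1.69 (1.55 to 1.83) and 1.83 (1.66 to 2.00). Sdhc, a membrane anchor, gave ratios of 1.71 and 1.94, and Sdhd, the other anchor, 1.80 and 2.67. Sdhb, the iron-sulfur subunit that sits between them, had 33.5 against 34.0 CPM in library 1 and 25.6 against 25.3 CPM in library 2, ratios of 0.986 (0.840 to 1.15) and 1.01 (0.844 to 1.21). The intervals of Sdhb lay below those of the other 3 subunits in both libraries.

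In complex III the core subunits Uqcrc2 and Uqcrc1 differed little between the pools, with ratios of 1.26 and 1.18 for Uqcrc2 and 1.22 and 1.31 for Uqcrc1. The hinge subunit Uqcrh had 58.05 against 26.01 CPM and 49.5 against 20.8 CPM, ratios of 2.23 and 2.38. In complex IV, Cox8a had 220 CPM in non-neuronal and 87.8 CPM in neuronal nuclei of library 1, and 229 and 84.1 CPM in library 2, ratios of 2.51 (2.35 to 2.68) and 2.72 (2.55 to 2.90). Over kept nuclei it had the highest CPM of the nuclear-coded members in both libraries, at 108 and 110. Per kilobase of exon, a scale that raises short genes, it was also the highest, at 175 and 178 CPM per kilobase. Cox7b gave 1.61 and 1.99 and Cox6a1 1.86 and 2.46.

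The catalytic core of ATP synthase was counted well in each class. Atp5a1, the alpha subunit, had 134 CPM in non-neuronal and 69.5 CPM in neuronal nuclei of library 1, and 149 and 64.1 CPM in library 2. Atp5b, the beta subunit, had 148 against 68.6 CPM and 138 against 62.0 CPM. Both had ratios of 1.92 to 2.32. Atp5o, the subunit that links the core to the stalk, differed less, with ratios of 1.204 and 1.04. Among single classes Atp5b ran from 65.8 CPM in excitatory neurons to 166 CPM in microglia in library 1, and from 59.7 CPM in excitatory neurons to 187 CPM in pericytes with smooth muscle in library 2.

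Which class was highest varied among nuclear-coded members. Microglia held the highest CPM of 16 and 19 of the 78, pericytes with smooth muscle of 15 and 22, fibroblasts of 18 and 9, and endothelial nuclei of 12 and 7. A neuronal class was highest for 1 member in library 1 and for 0 in library 2, and lowest for 36 and 57. Pericytes with smooth muscle, with 64 and 83 nuclei the smallest class, were also lowest for 11 and 4 members, and oligodendrocyte precursors for 20 and 8. In no class did more than 4 nuclear-coded members have their highest level in both libraries. The same counts were not made over all genes, so these have no background to be read against. Summed UMIs of the classes also differed, in library 1 from 156579 in pericytes with smooth muscle to 35987845 in excitatory neurons.

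Endothelial nuclei were then set against the other non-neuronal classes. Here the parts of the chain differed. The mitochondrially coded share was 1.60-fold (1.58 to 1.63) as high in endothelial nuclei in library 1 and 1.63-fold (1.61 to 1.66) in library 2, whereas the nuclear-coded share gave 1.07 (1.02 to 1.12) and 0.972 (0.935 to 1.01). Past 1.5-fold, 8 and 9 of the 13 mitochondrially coded genes were higher, where 20.8% and 18.6% of all genes were. Of the nuclear-coded members 6 and 5 of 78 were higher and 6 and 7 lower, against 35.9% and 32.9% of all genes lower. Mt-Co2, a subunit of complex IV, had 3899 CPM in endothelial and 2250 CPM in other non-neuronal nuclei of library 1, and 3798 and 2102 CPM in library 2. Mt-Atp6 had 5606 against 3259 CPM and 5533 against 3208 CPM. Mt-Co3 had ratios of 1.490 and 1.497, just under the limit. Mt-Nd6 in library 1 was the only mitochondrially coded gene lower past 1.5-fold, on 3 UMIs in endothelial nuclei.

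This difference had the same direction at each of the depths compared, from 1000 to 8000 UMIs, but its size varied with depth. The class held 157 and 291 endothelial nuclei in libraries 1 and 2. Those of 8000 UMIs or more were not compared at matched depth, though they count in the pooled ratios above. Among nuclei of 1000 to 2000 UMIs the mitochondrially coded share was 2.29% in endothelial and 1.91% in other non-neuronal nuclei of library 1, and 2.17% and 1.903% in library 2, ratios of 1.198 (1.14 to 1.26) and 1.14 (1.08 to 1.195). Among nuclei of 2000 to 4000 UMIs it was 2.18% in endothelial and 1.4995% in other non-neuronal nuclei of library 1, and 2.01% and 1.54% in library 2, ratios of 1.45 and 1.31. At 4000 to 8000 UMIs it was 2.46% against 1.16% and 2.72% against 1.25%, ratios of 2.13 and 2.17, with 23 and 33 endothelial nuclei. Rgs5, a pericyte marker, was among the 10 leading genes of the larger endothelial cluster, and pericyte markers were found in the endothelial class at 0.249% and 0.219% of its UMIs against 0.515% and 0.515% in pericytes with smooth muscle, a class that itself had a mitochondrially coded share of 1.53% and 1.57%. With nuclei of these classes limited to 1% mitochondrially coded UMIs, which bounds the measured share itself and leaves 19 and 25 endothelial nuclei, the ratio was 1.13 (1.03 to 1.24) and 0.9503 (0.878 to 1.03).

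The endothelial class held 2 clusters, and the high mitochondrially coded share belonged to the larger. Cluster 17, led by Slco1a4, Flt1 and Adgrl4, had 139 and 227 nuclei. Cluster 27, led by Eln, Bmx and Mecom, had 18 and 64. Slco1a4 codes an organic anion carrier of brain capillary endothelium, Flt1 a VEGF receptor, Eln elastin and Bmx a kinase of arterial endothelium. Median depths of the clusters were close, at 2490 and 2587 UMIs in cluster 17 and 2496 and 2748 in cluster 27. The shares pool UMIs, so that deeper nuclei weigh more, and the clusters were not compared within depth bins. The mitochondrially coded share was 2.61% in cluster 17 and 1.46% in cluster 27 of library 1, a ratio of 1.78 (1.66 to 1.92), and 2.75% and 1.37% in library 2, a ratio of 2.01 (1.93 to 2.09). The nuclear-coded share was 0.317% against 0.260% in library 1, a ratio of 1.22 (1.02 to 1.46), and 0.288% against 0.293% in library 2, a ratio of 0.983 (0.899 to 1.08).

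Most mitochondrially coded genes took part in the difference between the endothelial clusters. In library 2 all 13 were higher in cluster 17, with ratios of 1.27 to 2.49 and intervals above 1 for 12, mt-Nd6 being the exception. In library 1 the ratio exceeded 1 for 10 of the 12 genes counted in both clusters, with intervals above 1 for 9. The 2 below 1 were mt-Nd5, with 102 and 14 UMIs, and mt-Nd6, with 2 and 1. Mt-Atp8 had 12 UMIs in cluster 17 and 0 in cluster 27 of that library. Mt-Cytb had 2391 against 1235 CPM in library 1 and 2182 against 1038 CPM in library 2. Cluster 27 had 1.46% and 1.37%, close to the shares of fibroblasts.

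Outside the compared classes, ependymal and low-depth nuclei lay furthest from the rest. Cluster 28, which had ependymal markers, held 15 and 29 nuclei with 3.70% (3.55 to 3.86) and 3.22% (3.12 to 3.31) mitochondrially coded UMIs. Its nuclear-coded share was 0.212% and 0.231%, so that it had 17.5 and 13.9 mitochondrially coded UMIs per nuclear-coded UMI. Cluster 30, with choroid plexus markers, had 1.13% and 1.29% over 23 and 13 nuclei. Cluster 2 stayed unnamed: excitatory neuron markers led it, but its median depth was 2108 and 2400 UMIs. Its 524 and 722 nuclei had 2.40% and 2.26% mitochondrially coded UMIs. Cox8a was among its 10 leading genes. These nuclei had the highest nuclear-coded share of any cluster in both libraries, 0.429% and 0.475%, and an ordinary ratio of 5.59 and 4.75.

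**Figure D4:**
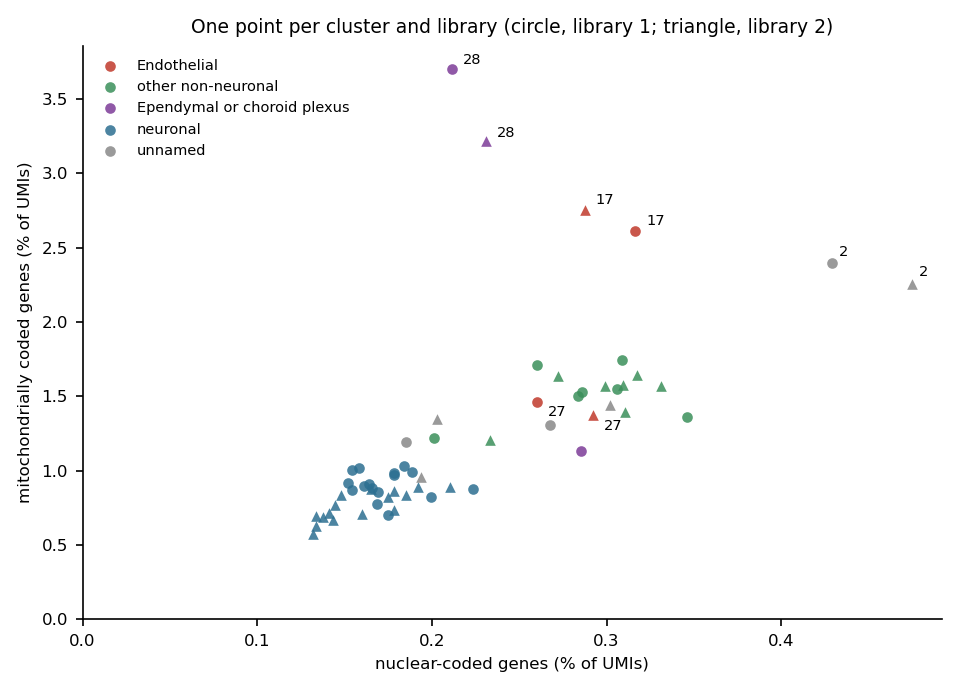
Mitochondrially coded against nuclear-coded share of UMIs in each cluster with 15 nuclei or more, 1 point per cluster and library, coloured by class group; numbers mark clusters 2, 17, 27 and 28. Clusters 17 and 28 lie above the band formed by the others, at 2.61% and 2.75% and at 3.70% and 3.22%, while cluster 27 lies within it and cluster 2 at its upper end.

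Across single barcodes, the shares of the 2 parts moved together. Nuclei with at most 0.5% mitochondrially coded UMIs had a nuclear-coded share of 0.158% and 0.140% of their remaining UMIs in libraries 1 and 2. At 0.5% to 1% it was 0.177% and 0.167%, at 1% to 2% 0.211% and 0.225%, and at 2% to 5% 0.256% and 0.301%. The nuclei of these bins also differed in depth, from a median of 8824 and 9326 UMIs in the lowest to 2373 and 2566 in the highest, and in class. The part of depth and class in this trend was not tested.

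Among neurons, the Parvalbumin-type cluster of inhibitory neurons had the highest nuclear-coded share of the 3 inhibitory clusters, 0.223% (0.217 to 0.230) and 0.210% (0.204 to 0.217), against 0.184% and 0.185% in cluster 14 and 0.189% and 0.175% in the Sst cluster. Parvalbumin interneurons are fast-spiking cells with a high energy use. Their mitochondrially coded share was 0.879% and 0.887%, against 1.03% and 0.837% in cluster 14, so the libraries did not give the same order for that part. Median depths were 8213 and 7466 UMIs in the Parvalbumin-type cluster and 6471 and 6366 in cluster 14.

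Several subunits exist in paired forms, of which one is general and the other restricted to some tissues. Cox4i2, the form of subunit 4 known from lung and from cells that sense oxygen, reached 19.2 and 21.8 CPM in pericytes with smooth muscle, its highest class, from 3 and 5 UMIs. Endothelial nuclei followed with 14.1 and 6.55 CPM from 8 and 7 UMIs. The remaining classes had at most 1.89 and 1.16 CPM. Ndufa4l2, grouped with complex I by its symbol, is a paralogue of Ndufa4, now known as a complex IV subunit, and is induced by low oxygen in several cell types. It had 35.2 and 26.2 CPM in endothelial nuclei from 20 and 28 UMIs. Pericytes with smooth muscle had 83.03 CPM from 13 UMIs in library 1 and 4.35 CPM from 1 UMI in library 2, so that the class order differed. All other classes were at 3.16 CPM or less. Endothelial nuclei of cluster 17 accounted for 20 of the 20 UMIs in library 1 and 27 of the 28 in library 2. The endothelial class also held pericyte markers, as given above, and Rgs5 was among the leading genes of cluster 17. The part of pericyte RNA in the endothelial UMIs of Cox4i2 and Ndufa4l2 was not tested. In non-neuronal nuclei Ndufa4l2 made up 9.52% (6.83 to 12.8) and 7.23% (5.06 to 9.96) of the UMIs of the pair it forms with Ndufa4, in neuronal nuclei 1.26% and 3.05%.

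Cox6b2, a form of subunit 6b known from testis, was highest in fibroblasts, at 17.3 CPM from 11 UMIs and 4.64 CPM from 4 UMIs. It gave the highest non-neuronal over neuronal ratio of the nuclear-coded members, 22.5 (10.6 to 52.2) and 18.6 (5.18 to 82.5), on 27 and 9 UMIs against 10 and 4. Cox7b2, another form known from testis, gave the lowest ratio in both libraries, 0.705 (0.449 to 1.06) and 0.825 (0.518 to 1.26), with intervals that include 1. It made up 6.79% and 8.48% of the UMIs of the pair it forms with Cox7b in non-neuronal nuclei, and 14.3% and 18.3% in neuronal nuclei. Cox6a2, the form of heart and skeletal muscle, had 5.92 and 5.74 CPM in the Parvalbumin-type cluster, from 14 and 10 UMIs, and 6.30 and 5.78 CPM in the low-depth cluster 2, from 7 and 10. Over the classes it stayed at 0 to 3 UMIs in each non-neuronal class and library. Of the 3 genes that code the ATP synthase c subunit, Atp5g2 made up 46.0% and 43.3% of its sum with Atp5g1 in non-neuronal nuclei, and 44.8% and 46.0% in neuronal nuclei, with overlapping intervals. Atp5g3 made up 56.8% and 59.4% of its sum with Atp5g1 in non-neuronal nuclei, and 52.1% and 60.1% in neuronal nuclei.

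Other genes of the pathway were taken from fixed lists and counted past 1.5-fold in the non-neuronal over neuronal ratio, over nuclei of all depths. By that count 40.6% and 49.6% of all genes were higher and 19% and 16.6% lower. Of 14 measured electron carriers and nucleotide exchangers, 10 and 11 were higher in non-neuronal nuclei and 0 were lower. Cycs, cytochrome c, had 52.1 CPM in non-neuronal and 19.3 CPM in neuronal nuclei of library 1, and 41.5 and 17.8 CPM in library 2. Slc25a4, an ADP and ATP carrier, had 157 against 70.9 CPM and 168 against 68.6 CPM. Of 18 enzymes of the citric acid cycle, 9 and 10 were higher and 0 lower. Of 44 assembly factors, 14 and 23 were higher, and Ndufaf6 in library 1 was lower. The counts higher in these last 2 lists lay near the share of all genes or, for assembly factors in library 1, below it. Of 28 genes of mitochondrial transcription and biogenesis, 9 and 11 were higher, below the share of all genes, and 2 were lower in each library. The lower ones were the nuclear receptor Esrrg, with 108 against 236 CPM and 97.0 against 257 CPM, and the coactivator Ppargc1b, with 33.1 against 83.1 CPM and 33.0 against 71.9 CPM. Tfam, which packages and transcribes mitochondrial DNA, had 19.8 against 11.4 CPM and 14.3 against 6.97 CPM.

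Cytosolic ribosomal proteins, which are no part of the chain, were counted in the same way. Of 80 measured, 64 and 73 were higher and 1 and 0 lower, with median ratios of 2.16 and 2.41 against 1.90 and 2.23 for nuclear-coded members. Their UMIs made up 0.172% and 0.174% of non-neuronal UMIs, and 0.0721% and 0.0668% of neuronal UMIs.

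The promoters of nuclear-coded members were searched for sequences of 2 kinds of factor known to act on respiratory genes, NRF1 and ETS proteins such as GABP. RefSeq promoters (GRCm38.p6) matched 68 of the 83. The NRF1 motif occurred on either strand in the 250 bases before the start of 12 of 68 members (17.6%) and of 915 of 17424 other protein-coding genes (5.25%). The letters CCGGAAG, for ETS factors, occurred in 11 of 68 (16.2%) and 9.10%. Either was found in 20 of 68 (29.4%) and 13.6%. The promoters of Sdha and Cox6a1 are shown as examples with several matches, in capitals, in genes past 1.5-fold in non-neuronal nuclei. Ndufb4, Sdhd and Atp5h met the same terms and are not shown. Whether matches go with the non-neuronal over neuronal ratio was not tested. The Sdha promoter lies on the minus strand at chr13:74350241-74350490 and the Cox6a1 promoter on the minus strand at chr5:115348959-115349208, each read 5′ to 3′ towards the start.
Sdha: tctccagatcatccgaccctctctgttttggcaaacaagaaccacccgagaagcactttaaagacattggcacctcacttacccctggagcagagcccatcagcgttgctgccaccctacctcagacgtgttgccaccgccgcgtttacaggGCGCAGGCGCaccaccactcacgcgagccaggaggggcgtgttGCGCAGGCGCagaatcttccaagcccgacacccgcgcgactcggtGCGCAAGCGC
Cox6a1: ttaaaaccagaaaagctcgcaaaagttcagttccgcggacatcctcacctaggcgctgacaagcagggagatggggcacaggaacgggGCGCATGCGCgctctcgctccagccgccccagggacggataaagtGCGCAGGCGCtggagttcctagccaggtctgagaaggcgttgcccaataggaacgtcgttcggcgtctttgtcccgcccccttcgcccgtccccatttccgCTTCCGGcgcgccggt
Sdha holds 3 matches to the NRF1 motif. Cox6a1 holds 2, and 1 match to the ETS letters on the other strand. A match describes these letters in this window and not a bound site.

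The libraries were last set side by side, as library 1 over library 2 and with no age attached. Over kept nuclei the mitochondrially coded share gave 1.15 (1.14 to 1.15) and the nuclear-coded share 1.049 (1.04 to 1.06). With equal weight per class the ratios were 1.03 and 0.993, so the nuclear-coded ratio did not keep its direction. By class, the mitochondrially coded share was higher in library 1 in excitatory, inhibitory and striatal neurons and oligodendrocytes, and higher in library 2 in microglia and astrocytes. Past 1.5-fold, 7 of 78 nuclear-coded members and 0 of 13 mitochondrially coded ones were higher in library 1, where 16.8% of all genes were. Lower were 6 nuclear-coded and 4 mitochondrially coded members, where 16.9% of all genes were.

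The 4 mitochondrially coded genes lower in library 1 were the 4 shortest. Mt-Nd6 had 4.38 CPM in library 1 and 27.8 CPM in library 2, mt-Atp8 8.44 and 34.1 CPM, mt-Nd4l 31.3 and 69.7 CPM, and mt-Nd3 143 and 249 CPM. The ratios were 0.157, 0.247, 0.450 and 0.576. Each was lower in library 1 in 10 of 10 classes, with intervals apart in 9, 9, 10 and 10 of them. Their lengths are 519, 204, 297 and 348 bases, against 681 to 1824 for the other 9, whose ratios ran from 0.788 for mt-Nd5 to 1.45 for mt-Cytb. Among all genes, 378 genes of up to 600 exonic bases had a median ratio of 0.532, against 1.13 for 8252 genes over 4000 bases. The 4 nuclear-coded members of up to 600 bases had a median of 0.956.

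Of these short genes, mt-Atp8 and mt-Nd4l also overlap their neighbours on the same strand, so how reads were split between them and mt-Atp6 or mt-Nd4 is uncertain. They are shown whole because their lengths and overlaps bear on their counts, with the bases shared with the next gene in capitals. Mt-Atp8 lies at chrM:7766-7969 and shares its last 43 bases with mt-Atp6. Mt-Nd4l lies at chrM:9877-10173 and shares its last 7 bases with mt-Nd4. Both are on the plus strand of mm10.
mt-Atp8: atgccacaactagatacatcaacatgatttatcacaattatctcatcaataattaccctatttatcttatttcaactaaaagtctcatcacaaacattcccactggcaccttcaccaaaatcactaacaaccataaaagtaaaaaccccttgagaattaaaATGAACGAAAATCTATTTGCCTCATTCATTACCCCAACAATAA
mt-Nd4l: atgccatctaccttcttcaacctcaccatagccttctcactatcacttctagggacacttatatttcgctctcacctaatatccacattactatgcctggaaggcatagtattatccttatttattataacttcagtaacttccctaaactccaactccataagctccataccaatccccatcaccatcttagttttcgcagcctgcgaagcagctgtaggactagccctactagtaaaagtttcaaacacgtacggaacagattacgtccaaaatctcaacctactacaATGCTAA

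Among measured nuclear-coded members Atp5o and Cox7c gave the lowest ratios of library 1 over library 2. Atp5o (chr16:91925214-91931687, minus strand) had 33.8 CPM in library 1 and 108 CPM in library 2, a ratio of 0.314. Cox7c (chr13:86044816-86046904, minus strand), a small subunit of complex IV, had 11.7 and 28.2 CPM, a ratio of 0.416. Both were lower in library 1 in 10 of 10 classes, with intervals apart in 9. Their exonic lengths are 1972 and 1131 bases. Each overlaps another annotated gene on its strand that is not in the matrix, which for Atp5o is a second gene of the same name. Atp5e, Atp5j, Cox4i2 and Ndufa4l2 were lower too, at 0.626 to 0.662. Higher in library 1 were Cox6b2 with a ratio of 2.50 on 41 and 17 UMIs, Ndufb4 with 2.22, Ndufs3 with 1.79, and Atp5s, Ndufb2, Ndufs7 and Cox7b with 1.54 to 1.75. With 1 library on each side and no map to age, none of these values is a difference between ages.

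**Figure D5:**
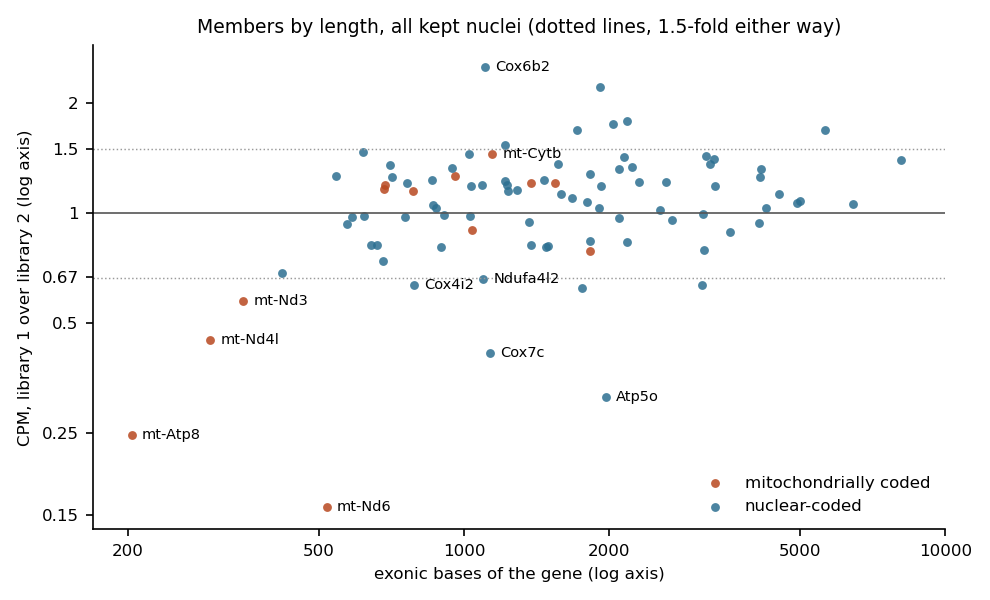
Ratio of CPM in library 1 over library 2 for each measured member against the exonic length of its gene, both on log axes, over all kept nuclei; dotted lines mark 1.5-fold either way. The 4 shortest mitochondrially coded genes lie at 0.157 to 0.576, and Atp5o and Cox7c at 0.314 and 0.416, while most members lie between the dotted lines.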

How the data were processed

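The values deposited are UMI counts with no normalization. Cell Ranger 3.1.0 made them, per the file headers. The processing notes of the submitters name version 2.0.1 instead, with R 4.0.2, Seurat 3.1 and the build mm10, and the conflict was not settled. For the annotation and the handling of intronic reads no source was found here. Barcodes with at least 200 genes and at most 5% mitochondrially coded UMIs were kept. That limit bounds a measured quantity. Scrublet's automatic threshold marked 0 and 2 barcodes and so had not worked; scores of 0.2 or more (305 and 332 barcodes) were left out. Counts scaled to 10000 per nucleus, without the members and listed pathway genes, gave 2000 variable genes, 30 components and Leiden clusters (scanpy 1.11.5, resolution 1, 15 neighbours). A cluster took a class name from at least 3 markers at 0.25 of their maximum, a mean of 0.33 and a lead of 1.2 over other classes; 921 and 1044 nuclei stayed unnamed. CPM are UMIs of a gene over summed UMIs of the pool, with exact Poisson, Clopper-Pearson and conditional binomial intervals. Exonic bases are the union over GENCODE vM21 transcripts.

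Named are the mitochondrially coded members, the 3 nuclear-coded members of each complex with the highest CPM, members of isoform pairs, members at 4-fold over the median class in both libraries, and those next to the minimum of 20 UMIs. Other genes named were chosen after their values were seen. Members and lists were chosen with earlier results of these data known. The calls and counting intervals were checked on simulated class sums with known folds. These were drawn as Poisson counts with no spread between nuclei, so the check covers the computation only. The settings varied were the mitochondrial limit, doublets, weighting, thinning to 1500 UMIs, minimum counts, fold and scale; the comparison at 2000 to 4000 UMIs, equal weight per class, the 1% limit without new clustering and the single endothelial clusters were added after seeing the data.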

Additional observations from a re-analysis of the deposited data

Results flagged for a closer look

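Signal lay outside the compared nuclei in 2 places. The 323 and 301 barcodes above the 5% limit that were not left out as doublets had 13.3% and 13.1% mitochondrially coded UMIs in libraries 1 and 2, with a nuclear-coded share of 0.304% and 0.287% and median depths of 2219 and 2723 UMIs. The ependymal cluster, too small to be compared, had 3.70% and 3.22% in 15 and 29 nuclei. A count of 0 would allow a share of 0.0052% and 0.00229% there.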

How the results depend on the processing

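The non-neuronal over neuronal ratios kept their direction for both shares under each setting tried. No setting was tried that added the unnamed cluster 2 as a whole to the neuronal pool. The size of the ratios depended on the limit on mitochondrially coded UMIs, on depth and on weighting. Values are for libraries 1 and 2, and causes were not tested. The mitochondrially coded ratio (1.80 and 2.34) was 2.10 and 2.98 with no limit, 1.34 and 1.415 with a limit of 1%, 1.71 and 2.15 with doublets kept, 1.77 and 2.18 with equal weight per nucleus, 1.74 and 2.16 thinned to 1500 UMIs, 1.74 and 2.03 with equal weight per class, and 1.14 and 1.27 at 2000 to 4000 UMIs, where counting depth in UMIs of other genes gave 1.11 in library 1. The nuclear-coded ratio (1.74 and 1.95) was 1.53 and 1.62 with a limit of 1%, 1.59 and 1.75 with doublets kept, 1.68 in library 1 when thinned, 1.59 and 1.77 with equal weight per class, and 1.29 and 1.22 at 2000 to 4000 UMIs. The ratio of both parts (1.03 and 1.197) turned below 1 with a limit of 1%, at 0.876 and 0.873, and at 2000 to 4000 UMIs in library 1, at 0.881, against 1.04 in library 2. It was 1.19 and 1.55 with no limit, 1.08 and 1.23 with doublets kept, 1.01 and 1.12 with equal weight per nucleus, 1.12 in library 2 when thinned, and 1.09 and 1.15 with equal weight per class. The count of nuclear-coded members higher in non-neuronal nuclei (60 and 65) was 24 and 24 at 2000 to 4000 UMIs, and 33 in library 1 past 2-fold. Members higher in neuronal nuclei (0 and 0) numbered 1 and 2 with a limit of 1%, 1 in library 1 with equal weight per nucleus and when thinned, 2 in library 1 among genes with 1 UMI or more, 1 and 1 with equal weight per class, and 2 and 2 at 2000 to 4000 UMIs.

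The endothelial ratio of mitochondrially coded share (1.60 and 1.63) was 1.73 and 1.73 with no limit, 1.13 and 0.9503 with a limit of 1% on the nuclei of the same classes, 1.54 in library 2 with doublets kept, 1.37 and 1.39 with equal weight per nucleus, 1.40 and 1.38 when thinned, 1.67 and 1.81 for cluster 17 alone, and 0.900 for cluster 27 alone in library 2. Clustering anew under the 1% limit merged endothelial nuclei with fibroblasts: of the 60 and 63 nuclei in the cluster that took the endothelial name, 41 and 36 were fibroblasts and 19 and 25 endothelial by their class at 5%, so its ratio of 0.998 and 0.9503 is not an endothelial value. The nuclear-coded endothelial ratio of library 2 (0.972) was 1.00 with no limit, 1.02 with a limit of 1% on the nuclei of the same classes (1.09 for the merged cluster), 1.04 with doublets kept, 1.046 with equal weight per nucleus and 1.03 when thinned. Library 1 over library 2 was 1.10 for the mitochondrially coded share with no limit and 1.03 with equal weight per class (1.15), and 0.993 for the nuclear-coded share with equal weight per class (1.049). Endothelial nuclei were highest and excitatory neurons lowest with no limit and with doublets kept; clustered anew with a limit of 1%, oligodendrocytes were highest and microglia lowest in library 1, at 0.804% and 0.463%, and pericytes with smooth muscle highest and excitatory neurons lowest in library 2, at 0.786% and 0.514%, though with 24 microglia and 21 pericytes with smooth muscle, under the 50 nuclei required elsewhere. Depth limits single members of low count, such as Cox4i2 and Cox6b2. No paired analysis was possible because each age has 1 pooled sample and no result comes from a test.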

Other observations

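The barcodes above the 5% limit carried on the trend of nuclear-coded with mitochondrially coded share, but not evenly. From 5% to 10% mitochondrially coded UMIs the nuclear-coded share of the remaining UMIs was 0.301% and 0.296% over 163 and 168 barcodes. From 10% to 20% it was 0.399% and 0.295% over 44 and 38 barcodes, and above 20% 0.544% and 0.556% over 116 and 95 barcodes. The barcodes with the most held 57.7% and 67.1%. Excitatory neurons of 16000 UMIs or more, the deepest nuclei, had 0.803% and 0.718% mitochondrially coded UMIs.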
